A study of Mus musculus with 24 samples.

Results

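The receptors described here bind the opioid peptides, neuropeptide Y (NPY), galanin and somatostatin. Their transcripts were measured in sorted sensory neurons of control mice and of mice in which Nav1.8-Cre deletes Tsc2. The group comprised 10 genes, Oprm1, Oprd1, Oprk1, Oprl1, Npy1r, Npy2r, Npy5r, Galr1, Galr2 and Sstr2. They were picked by symbol, as inhibitory peptide receptors of nociceptors, from the 47643 gene identifiers of the count files, and all 10 matched an identifier. RNA-seq was performed on 24 libraries, each from 100 GFP-positive cells of lumbar L4 dorsal root ganglia (DRG). Each of 4 control and 4 Nav-Tsc2 mice gave 3 technical libraries, and the counts of these were added up, since replication was at the level of the mouse.

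Control mice carried Nav1.8-Cre, Tsc2 flox/+ and the reporter Rosa26-ZsGreen. Nav-Tsc2 mice carried Nav1.8-Cre, Tsc2 flox/null and the same reporter. Both genotypes therefore carried the Cre transgene, a floxed Tsc2 allele and the reporter, and they differed in the other Tsc2 allele, wild type in control mice and null in Nav-Tsc2 mice. Where Cre has recombined the floxed allele, control cells keep only the wild-type allele and Nav-Tsc2 cells keep no intact allele. The control cells are therefore not cells with a full Tsc2 dose. All mice were of a mixed C57BL/6 and AJ background and 8-9 weeks old, with males as replicates 1 and 2 and females as replicates 3 and 4 in both genotypes. The ganglia were those opposite to the side of a sciatic nerve crush made 3 d before, so no mouse was without surgery. Recombination was limited to cells with a history of Nav1.8-Cre expression, which are mostly nociceptors with some neurons of myelinated axons, and cells were sorted by the reporter that the same Cre switches on.

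These receptors are G protein-coupled receptors that act mainly through the Gi/o class of G proteins. Their activation lowers cyclic AMP, closes voltage-gated calcium channels at the presynaptic terminal and opens inwardly rectifying potassium channels, so that a neuron fires less and releases less transmitter. Galr2 is an exception, since it also couples to Gq and can excite neurons. In nociceptors the μ-, δ- and κ-opioid receptors, the NPY Y1 and Y2 receptors and the somatostatin receptor Sst2 are known for reducing the signaling of pain and itch.

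Each library held between 8339220 and 34228180 counts on genes and each mouse between 47959617 and 61290435, and the reads carried no molecular identifiers, so that the spread between mice rather than counting error is given. Values below are normalized CPM, counts scaled to the size of each library by the TMM method. A gene was called when edgeR's quasi-likelihood test, adjusted over all 17178 genes that passed a filter on low counts, gave p under 0.05 and the log2 fold change (Nav-Tsc2 over control) was under -0.5 or over 0.5. Tsc2 itself was read at 13.4, 24.7, 21.5 and 24.1 CPM in control replicates 1 to 4 and at 8.70, 8.51, 7.30 and 10.95 CPM in Nav-Tsc2 replicates 1 to 4. It fell by 1.24 on the log2 scale (SE 0.22, edgeR adjusted p = 0.004) with no overlap between genotypes, in the direction the genotype labels give. Scn10a, which encodes Nav1.8, lay between 510 and 791 CPM in control and between 577 and 658 CPM in Nav-Tsc2 mice, so the marker that defines the sorted cells was present in every mouse.

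The upstream sequences of the called receptors are shown to place the genes, each as the 250 bases before a RefSeq start on the genome build GRCm38.p6, written 5′ to 3′ on the strand of the gene. Capitals mark matches, on either strand, to the letters TGACG (the half-site of a cyclic AMP response element), CACGTG (an E-box), TATAAA (which the TATA-binding protein recognizes), the CCAAT box and GGGCGG (a GC box). The letters allow overlaps, of a motif with its own reverse complement or with another motif, and bases in an overlap are capitalized once. Oprk1, the fifth called receptor, had no entry in the RefSeq table. The Npy2r sequence lies at chr3:82548086-82548335 on the minus strand, Oprm1 at chr10:6788320-6788569, Oprl1 at chr2:181714766-181715015 and Galr2 at chr11:116280689-116280938, all 3 on the plus strand, and none of the 4 windows holds an annotated exon of GENCODE M21. The Npy2r, Oprl1 and Galr2 windows lie just before the annotated gene, and the Oprm1 window lies within the gene, before an internal start.
Npy2r: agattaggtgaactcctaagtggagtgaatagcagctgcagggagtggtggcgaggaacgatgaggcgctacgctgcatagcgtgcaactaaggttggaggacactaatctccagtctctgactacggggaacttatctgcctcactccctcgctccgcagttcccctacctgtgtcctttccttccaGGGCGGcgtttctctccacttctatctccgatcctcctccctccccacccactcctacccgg
Oprm1: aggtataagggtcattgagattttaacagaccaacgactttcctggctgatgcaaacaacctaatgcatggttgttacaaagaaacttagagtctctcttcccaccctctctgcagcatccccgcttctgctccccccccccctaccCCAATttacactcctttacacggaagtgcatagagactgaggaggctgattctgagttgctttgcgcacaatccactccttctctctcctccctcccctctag
Oprl1: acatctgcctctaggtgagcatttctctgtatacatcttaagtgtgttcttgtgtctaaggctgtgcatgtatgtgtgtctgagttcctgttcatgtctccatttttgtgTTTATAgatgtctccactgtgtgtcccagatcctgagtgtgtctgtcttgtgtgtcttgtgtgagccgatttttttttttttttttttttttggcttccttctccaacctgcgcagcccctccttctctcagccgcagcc
Galr2: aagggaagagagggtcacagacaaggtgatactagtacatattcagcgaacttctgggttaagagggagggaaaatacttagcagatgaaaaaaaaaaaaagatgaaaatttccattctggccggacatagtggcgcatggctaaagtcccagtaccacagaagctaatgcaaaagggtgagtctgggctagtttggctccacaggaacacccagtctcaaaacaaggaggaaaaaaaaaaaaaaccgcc

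The matches differed between the genes. The Npy2r window held a GC box that began 62 bases before the start, the Oprm1 window a CCAAT box at 103 bases, the Oprl1 window a TATAAA on the reverse strand at 140 bases, and the Galr2 window none of the motifs. Over all 32851 promoter windows of the table the GC box was found in 32.7%, CCAAT in 33.8%, TATAAA in 12.4%, TGACG in 17.8% and CACGTG in 6.02%. In 12 windows of 8 members, which included alternative starts of Oprm1 and Oprl1, TGACG was found in 1, that of Sstr2, where it stood on both strands 58 and 55 bases before the start. Of the other members, Galr1 was left out of the search and Oprk1 had no entry. These matches describe letters only, and no binding was measured.

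Of the 10 receptors, 4 passed the test as lower and 1 as higher in Nav-Tsc2 mice. Npy2r, Oprk1, Galr2 and Oprm1 fell and Oprl1 rose, while Galr1, Npy1r, Sstr2, Npy5r and Oprd1 were not called. Over all genes tested 8.00% were called lower and 9.12% higher. In 3 receptors (Npy2r, Oprk1 and Galr2) every Nav-Tsc2 mouse lay below every control mouse, against 12.3% of all genes, and in 1 (Oprl1) every Nav-Tsc2 mouse lay above, against 14.6%. The median log2 fold change was -0.73 over the 10 receptors and 0.01 over all genes. In sorted bulk samples such as these, fewer cells of a type and less RNA per cell cannot be told apart.

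**Figure D1:**
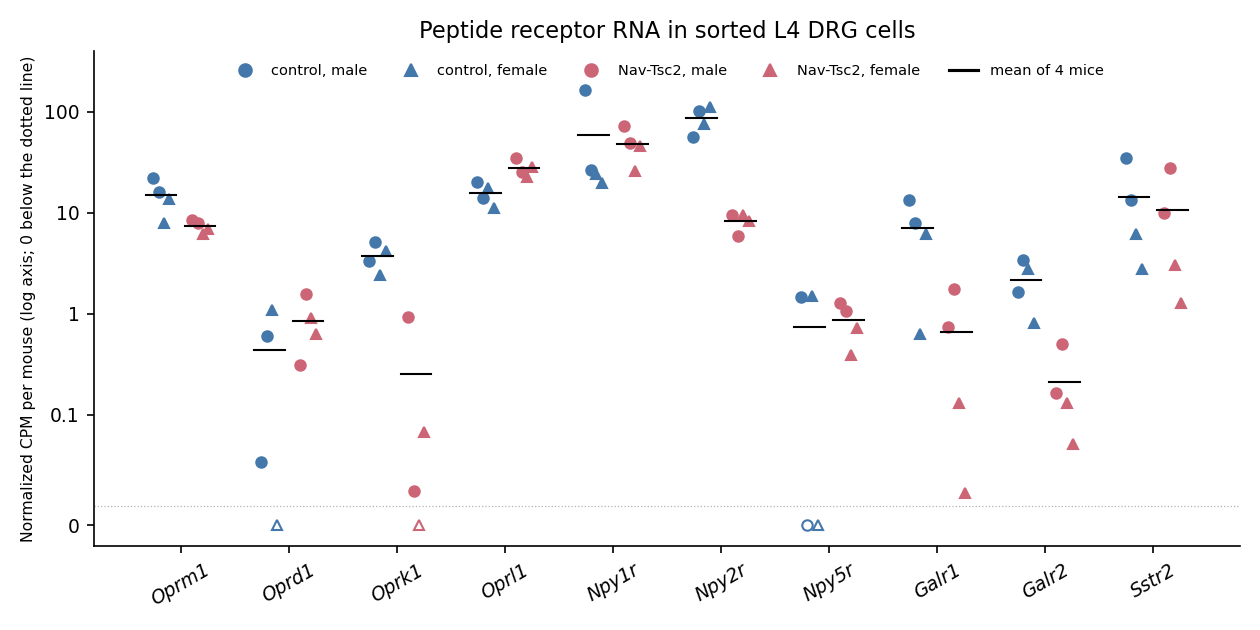
Normalized CPM of each receptor in each mouse on a log axis, with values of 0 as open symbols below the dotted line. Circles are male and triangles female mice, blue is control and red Nav-Tsc2, and black lines are the means of 4 mice. The 4 Nav-Tsc2 mice lie below all control mice for Npy2r, Oprk1 and Galr2 and above them for Oprl1.

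Npy2r encodes the NPY receptor Y2, the receptor that holds back transmitter release from the terminals of sensory and sympathetic neurons. Its level in control replicates 1 to 4 was 56.6, 100.2, 75.0 and 111 CPM, and in Nav-Tsc2 replicates 1 to 4 it was 9.53, 5.86, 9.37 and 8.33 CPM. The genotypes were far apart, with means of 85.8 ± 24.7 CPM (SD, n = 4) and 8.27 ± 1.70 CPM (SD, n = 4). Npy2r fell by 3.37 on the log2 scale (SE 0.25, 95% confidence interval -3.93 to -2.82, edgeR adjusted p = 4.58e-05), and the control mean was 10.4 times the Nav-Tsc2 mean. It was called lower under all 18 alternatives tried, with log2 fold changes between -3.55 and -3.22. The 18 include a stricter adjusted p and a call with no limit on the log2 fold change, which reuse the main fit. Neither can change a fold change, and the call with no limit cannot be lost.

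The difference was also present library by library. The 12 control libraries held between 24.9 and 128 CPM of Npy2r with a median of 83.9, and the 12 Nav-Tsc2 libraries between 1.14 and 18.8 CPM with a median of 6.03. No Nav-Tsc2 library reached the lowest control library, and none of the 24 was without a count. Npy2r was the receptor with the highest level per kilobase of exon in control mice and held the fourth place in Nav-Tsc2 mice.

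Npy1r encodes the Y1 receptor, a somatic and dendritic receptor that is found on peptidergic sensory neurons. Control replicates 1 to 4 had 162, 26.5, 23.97 and 19.5 CPM, and Nav-Tsc2 replicates 1 to 4 had 72.6, 48.3, 25.5 and 46.0 CPM. Control replicate 1 stood far above the other 3 control mice, and the genotypes overlapped. The estimate was a log2 fold change of -0.27 (SE 0.66, 95% confidence interval -1.76 to 1.21, edgeR adjusted p = 0.820).

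The direction of Npy1r rested on that mouse. Library C of control replicate 1 had 291 CPM, library B 123 CPM and library A 45.7 CPM, so that 65.4% of the mouse's 9583 Npy1r counts came from library C. Without control replicate 1 the log2 fold change was 1.04 (edgeR adjusted p = 0.0484), and Npy1r was then called higher. With the replicate number as a block it was 0.27 (adjusted p = 0.685) and with sex as a covariate 0.03 (adjusted p = 0.975). Npy1r was called lower in none of the 18 alternatives.

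Npy5r encodes the Y5 receptor and lies beside Npy1r on chromosome 8, on the opposite strand. It was close to the limit of detection, at 1.47, 0, 1.501 and 0 CPM in control replicates 1 to 4 and at 1.28, 1.06, 0.392 and 0.728 CPM in Nav-Tsc2 replicates 1 to 4. It was found at 1 CPM or more in 2 control and 4 Nav-Tsc2 libraries, and 10 control libraries and 1 Nav-Tsc2 library had no count. A count of 0 allows up to 3 counts, or between 0.0490 and 0.0617 CPM in a mouse of this depth, for counting error only. Its log2 fold change was 0.21 (SE 1.35, 95% confidence interval -2.82 to 3.24, edgeR adjusted p = 0.939), and the interval spans large changes in both directions.

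Oprm1 encodes the μ-opioid receptor, the main target of morphine. It was found at 1 CPM or more in all 24 libraries. In control replicates 1 to 4 it had 21.8, 15.9, 7.94 and 13.7 CPM, and in Nav-Tsc2 replicates 1 to 4 8.46, 7.82, 6.21 and 6.87 CPM. The genotypes overlapped by a narrow margin, since control replicate 3 lay below Nav-Tsc2 replicate 1, and the Nav-Tsc2 mice were closer to each other than the control mice were.

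Oprm1 fell by 1.02 on the log2 scale (SE 0.28, 95% confidence interval -1.65 to -0.38, edgeR adjusted p = 0.0308). The call was lost without any single Nav-Tsc2 mouse and without control replicate 1 or 2, with adjusted p up to 0.0814, and the log2 fold change stayed between -1.23 and -0.77. The annotated exons of Oprm1 share 1.19% of their length with Ipcef1 on the other strand, and reads of these libraries without strand cannot be told apart there.

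Oprk1 encodes the κ-opioid receptor, which binds dynorphins. The values in control replicates 1 to 4 were 3.30, 5.15, 2.39 and 4.14 CPM, and those in Nav-Tsc2 replicates 1 to 4 were 0.926, 0.0177, 0 and 0.0677 CPM. The 4 control mice held 805 Oprk1 counts together and the 4 Nav-Tsc2 mice 50, of which 45 came from replicate 1, all of them from its library C. The other 3 Nav-Tsc2 mice were thus near 0, with 1, 0 and 4 counts.

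Oprk1 fell by 3.91 on the log2 scale (SE 1.22, 95% confidence interval -6.64 to -1.17, edgeR adjusted p = 0.0480). At these counts the size of the fold change depends on the prior count of the fit. The call was lost without any single control mouse and without Nav-Tsc2 replicate 2, 3 or 4, with adjusted p up to 0.113. Without Nav-Tsc2 replicate 1 the log2 fold change was -6.94 (adjusted p = 0.00222), and with the replicate number as a block it was -5.71 (adjusted p = 0.0368). In control mice Oprk1 was uneven between libraries, with 7 of 12 at 1 CPM or more and 4 without a count, and library C gave all 206 counts of control replicate 4.

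Oprd1 encodes the δ-opioid receptor. It was scarce in these cells, at 0.0339, 0.606, 1.09 and 0 CPM in control replicates 1 to 4 and at 0.309, 1.56, 0.915 and 0.626 CPM in Nav-Tsc2 replicates 1 to 4. Only 2 control and 5 Nav-Tsc2 libraries reached 1 CPM. Between genotypes the log2 fold change was 0.98 (SE 1.20, 95% confidence interval -1.71 to 3.67, edgeR adjusted p = 0.626).

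Oprl1 encodes the nociceptin receptor, which is related to the opioid receptors but is not opened to signaling by the classical opioid peptides. Control replicates 1 to 4 had 19.9, 13.9, 17.6 and 11.2 CPM, and Nav-Tsc2 replicates 1 to 4 had 34.4, 25.3, 22.6 and 28.1 CPM. Every Nav-Tsc2 mouse lay above every control mouse. Oprl1 rose by 0.82 on the log2 scale (SE 0.21, 95% confidence interval 0.36 to 1.28, edgeR adjusted p = 0.0204), which put the Nav-Tsc2 mean at 1.76 times the control mean.

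The libraries of the genotypes overlapped for Oprl1, between 4.08 and 40.6 CPM in control and between 7.78 and 41.7 CPM in Nav-Tsc2 mice, with medians of 12.03 and 24.9 CPM. The call was lost when the libraries of a mouse were weighted equally and without control replicate 2, Nav-Tsc2 replicate 1 or Nav-Tsc2 replicate 4, with adjusted p up to 0.0669. The log2 fold change was between 0.68 and 1.07 in all 18 alternatives. Oprl1 and Oprm1, both present in every library, thus moved in opposite directions between genotypes.

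Galr1 encodes the galanin receptor that couples to Gi/o and inhibits neurons. Control replicates 1 to 4 had 13.3, 7.88, 0.633 and 6.14 CPM, and Nav-Tsc2 replicates 1 to 4 had 0.741, 1.75, 0.131 and 0.0169 CPM. Control replicate 3 lay within the range of the Nav-Tsc2 mice, and the other 3 control mice lay above it. The log2 fold change was -3.40 (SE 1.16, 95% confidence interval -6.00 to -0.80) and did not pass the test (edgeR adjusted p = 0.0659). It was called lower without control replicate 3 (adjusted p = 0.0292), without Nav-Tsc2 replicate 2 (0.0491), with sex as a covariate (0.0147), with the replicate number as a block (0.0473) and by DESeq2 (0.0290).

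Galr2 encodes the second galanin receptor. Control replicates 1 to 4 had 1.63, 3.41, 2.75 and 0.803 CPM, and Nav-Tsc2 replicates 1 to 4 had 0.165, 0.495, 0.131 and 0.0508 CPM. The levels were low but did not overlap, and no Nav-Tsc2 library reached 1 CPM, whereas 9 of 12 control libraries did. Galr2 fell by 3.34 on the log2 scale (SE 0.77, 95% confidence interval -5.07 to -1.61, edgeR adjusted p = 0.0141). The call was kept without each mouse in turn, with adjusted p up to 0.0497.

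Sstr2 encodes the main somatostatin receptor of sensory neurons. Control replicates 1 to 4 had 35.1, 13.3, 6.08 and 2.79 CPM, and Nav-Tsc2 replicates 1 to 4 had 9.81, 27.9, 3.04 and 1.27 CPM. The genotypes overlapped over most of their range, and within each genotype both male mice lay above both female mice. The log2 fold change between genotypes was -0.45 (SE 0.95, 95% confidence interval -2.57 to 1.67, edgeR adjusted p = 0.791), and it was 0.50 without control replicate 1.

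**Figure D2:**
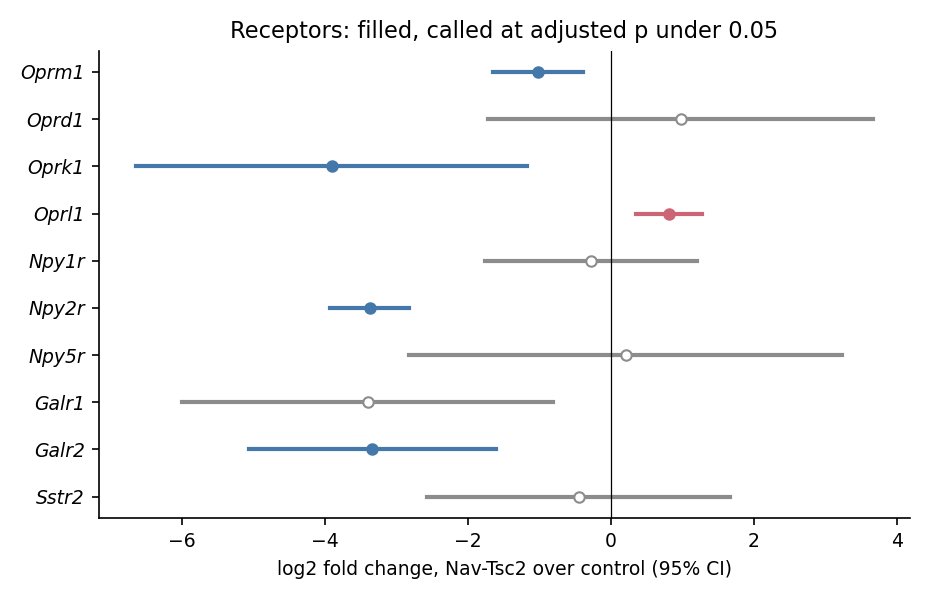
Log2 fold change of each receptor, Nav-Tsc2 over control, from edgeR on 4 mice per genotype, with 95% confidence intervals as lines. Filled blue points were called lower, the filled red point higher and open gray points were not called. The interval of Npy2r, from -3.93 to -2.82, is far from 0, while those of Npy1r, Npy5r, Oprd1 and Sstr2 span 0.

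Levels of different receptors were compared per kilobase of annotated exon. In control mice Npy2r came first at 25.4 ± 7.30 CPM per kilobase (SD, n = 4), followed by Npy1r, Sstr2, Oprl1, Galr1, Oprm1, Galr2, Oprk1, Npy5r and Oprd1, with Oprd1 at 0.107 ± 0.129. No neighbors in this order were separated in all 4 mice. In Nav-Tsc2 mice Npy1r came first at 13.9 ± 5.58 CPM per kilobase (SD, n = 4), followed by Oprl1, Sstr2, Npy2r, Oprm1, Npy5r, Galr1, Oprd1, Galr2 and Oprk1. There Npy2r lay above Oprm1, and Oprm1 above Npy5r, in every mouse.

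Each library held only 100 cells, and the receptors varied widely between libraries of the same mouse. Npy2r, Oprm1 and Oprl1 were present at 1 CPM or more in all 24 libraries and Npy1r in 23. Galr1 reached 1 CPM in 8 control and 2 Nav-Tsc2 libraries and Sstr2 in 10 control and 7 Nav-Tsc2 libraries. Receptors at low levels therefore rested on a few libraries in several mice.

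**Figure D3:**
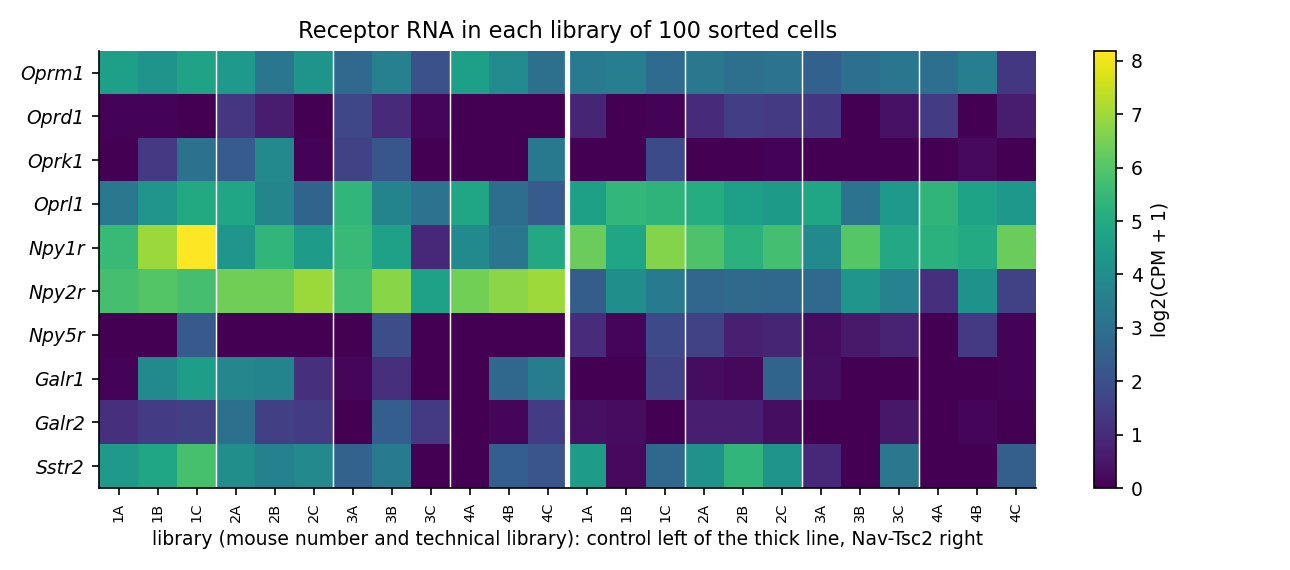
Level of each receptor in each of the 24 libraries, as log2(CPM + 1) on the color scale. Thin white lines separate mice and the thick line separates the 12 control libraries from the 12 Nav-Tsc2 libraries. Npy2r is high in every control library, and Npy1r is highest in control library 1C at 291 CPM.

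The receptors varied between libraries, and the genes whose levels varied most like each receptor were listed. Pearson's r was taken over the 24 libraries on log2(CPM + 1) after the mean of each genotype was subtracted, among 10185 genes with a mean of at least 5 CPM. These values are a description without a test, since 3 libraries share a mouse and all share the sort. Only the genotype mean was subtracted, so differences between mice and between the sexes remain in r here and below. Their part in r was not tested. Npy1r varied most like Gal (r = 0.82), Adcyap1 (0.80) and Gfra3 (0.78), and Sstr2 like Gpx3 (0.87), Btbd3 (0.76) and Fam89a (0.75). Spearman's rho was lower for the Npy1r genes, at 0.70, 0.60 and 0.54 in this order. For the Sstr2 genes it was 0.90, 0.72 and 0.81. Gal encodes galanin, Adcyap1 the neuropeptide PACAP and Gfra3 the receptor for artemin.

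The other receptors gave genes of more mixed kinds. For Oprm1 the leading gene was B230216N24Rik (r = 0.72), for Npy2r Pdss2 (0.75), for Galr1 Ptprn (0.77), for Galr2 Bbs9 (0.80), for Oprl1 Trrap (0.74) and for Oprk1 Lcorl (0.70). Spearman's rho for these was 0.77, 0.71, 0.74, 0.57, 0.80 and 0.67 in the same order. Against marker lists of neuron types, the peptidergic list (with Calca, Tac1, Adcyap1 and Kit among its genes) was the closest for Sstr2 (r = 0.73), Galr1 (0.67), Npy1r (0.62), Oprk1 (0.45) and Oprm1 (0.36). For Npy2r the closest list was that of the itch neurons marked by Nppb and Sst (0.31), for Galr2 the cold list of Trpm8 and Foxp2 (0.49, but by Spearman's rho 0.20, against 0.44 for the peptidergic list), and Oprl1 followed no list, with a highest r of 0.02. Between receptors the closest pairs were Oprk1 with Galr1 (0.66) and Npy1r with Sstr2 (0.60).

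**Figure D4:**
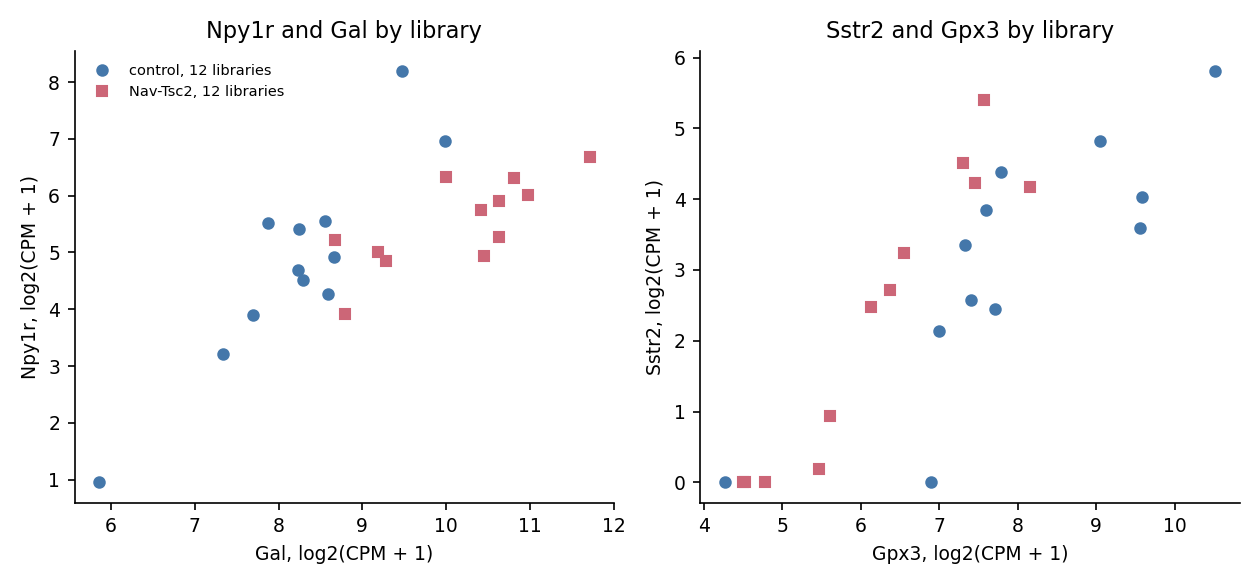
Left, Npy1r against Gal, and right, Sstr2 against Gpx3, as log2(CPM + 1) in each library, with control libraries as blue circles and Nav-Tsc2 libraries as red squares. Each pair varied together within both genotypes, and Gal spans 57.0 to 1012 CPM in control and 406 to 3360 CPM in Nav-Tsc2 libraries.

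Markers of some neuron types moved with the genotype beside these receptors. By edgeR 0 of 6 nonpeptidergic and 0 of 2 cold markers were called. At an unadjusted p under 0.05 there were 1 and 0, and by DESeq2 0 and 0. The summed level of the nonpeptidergic list was between 382 and 1213 CPM in control and between 1204 and 1407 CPM in Nav-Tsc2 mice. Of 7 myelinated markers 1 was called lower (Cntnap2, log2 fold change -1.01). Of 5 low-threshold C-fiber markers 1 was called higher (Th, 3.12), and of 6 general nociceptor markers 1 was called higher (Prph, 0.72). Over all genes 8.00% were called lower and 9.12% higher. When the replicate number was a block, Th was no longer called (edgeR adjusted p = 0.0766). Leaving out Nav-Tsc2 mouse 1, 2 or 4 also removed its call (adjusted p up to 0.0708). So did leaving out control mouse 3 or 4 (up to 0.0597). Among the peptidergic markers Calca and Kit fell, and the summed level of the list was between 9535 and 19382 CPM in control and between 4208 and 6980 CPM in Nav-Tsc2 mice. Of the 6 itch neuron markers 3 were called lower and 1 higher, against 8.00% and 9.12% of all genes. Sst, Il31ra and Nppb were lower, and Nts, which encodes neurotensin, was higher at between 1194 and 3106 CPM in Nav-Tsc2 against between 15.7 and 96.7 CPM in control mice. The call of Nppb was lost with the replicate number as a block (edgeR adjusted p = 0.0894), with the mouse as a random effect (limma adjusted p = 0.267) and without Nav-Tsc2 replicate 1 or 4, or control replicate 2, 3 or 4 (up to 0.0921), and that of Il31ra with the random effect (0.0588). The parts of these shifts in the receptor values were not tested.

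Markers of cells other than neurons were counted as well. Of 8 glial markers 0 were called by edgeR, 1 had an unadjusted p under 0.05 and 1 was called by DESeq2, and their sum lay between 521 and 766 CPM in control and between 477 and 700 CPM in Nav-Tsc2 mice. The sum of 5 endothelial markers was at most 1.83 CPM in control and between 5.81 and 15.5 CPM in Nav-Tsc2 mice, and Flt1 and Kdr were called higher by edgeR, while Cdh5 and Cldn5 were at or near 0 in both genotypes. The call of Kdr was lost without the filter on low counts (adjusted p = 0.0667) and without any single mouse but control replicate 2 (up to 0.134). The sum of 6 macrophage markers was at most 4.51 CPM in control and between 9.73 and 18.8 CPM in Nav-Tsc2 mice, with Cx3cr1 called higher by edgeR and 2 markers called by DESeq2. The sum of 3 red blood cell markers was between 1.09 and 1.93 CPM in control and between 0.392 and 0.672 CPM in Nav-Tsc2 mice, without overlap, and of the 2 tested 0 were called by edgeR, 2 had an unadjusted p under 0.05 and 2 were called by DESeq2. Of 6 fibroblast markers 0 were called by edgeR or DESeq2 and 0 had an unadjusted p under 0.05. The parts of the endothelial, macrophage and red blood cell signals in the receptor values were not tested.

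Among the ligands of these receptors, genes moved in both directions. Of 11 ligand genes 8 passed the filter, of which 1 was called lower and 3 higher, against 8.00% and 9.12% of all genes. Sst, the gene of somatostatin, had 14.8, 139, 79.2 and 59.7 CPM in control replicates 1 to 4 and 0.0206, 0.248, 0.1797 and 0.0846 CPM in Nav-Tsc2 replicates 1 to 4. Sst was near 0 in every Nav-Tsc2 mouse, and it fell by 9.04 on the log2 scale (SE 0.84, edgeR adjusted p = 0.000144). Its receptor gene Sstr2 was not called, as given above.

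Npy, the gene of neuropeptide Y, had 0.220, 0.0947, 0.163 and 0.763 CPM in control replicates 1 to 4 and 9.15, 14.6, 4.18 and 8.84 CPM in Nav-Tsc2 replicates 1 to 4. It rose from near 0 by 4.89 on the log2 scale (SE 0.69, edgeR adjusted p = 0.00125), whereas Npy2r fell. Gal had 721, 332, 228 and 285 CPM in control and 1741, 1527, 946 and 873 CPM in Nav-Tsc2 replicates 1 to 4. It rose by 1.70 (SE 0.37, adjusted p = 0.0108), so that every Nav-Tsc2 mouse lay above every control mouse, whereas Galr2 fell.

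Penk encodes proenkephalin, the source of the enkephalins that act on the μ- and δ-receptors. It had 24.8, 136, 15.5 and 48.4 CPM in control replicates 1 to 4 and 1262, 288, 126 and 199 CPM in Nav-Tsc2 replicates 1 to 4. It rose by 3.06 (SE 0.88, edgeR adjusted p = 0.0346), but Nav-Tsc2 replicate 3 lay below control replicate 2, and the call was lost without Nav-Tsc2 replicate 1 or 2, or control replicate 1, 3 or 4, with adjusted p up to 0.104. Without Nav-Tsc2 replicate 1 the log2 fold change was 1.86. The nociceptin precursor gene Pnoc had means of 5.62 CPM in control and 0.696 CPM in Nav-Tsc2 mice, with overlap and adjusted p = 0.150. Pdyn and Pomc, the precursors of dynorphin and of β-endorphin, and Spx, the gene of the galanin receptor ligand spexin, were not called, with adjusted p of 0.746, 0.516 and 0.536.

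**Figure D5:**
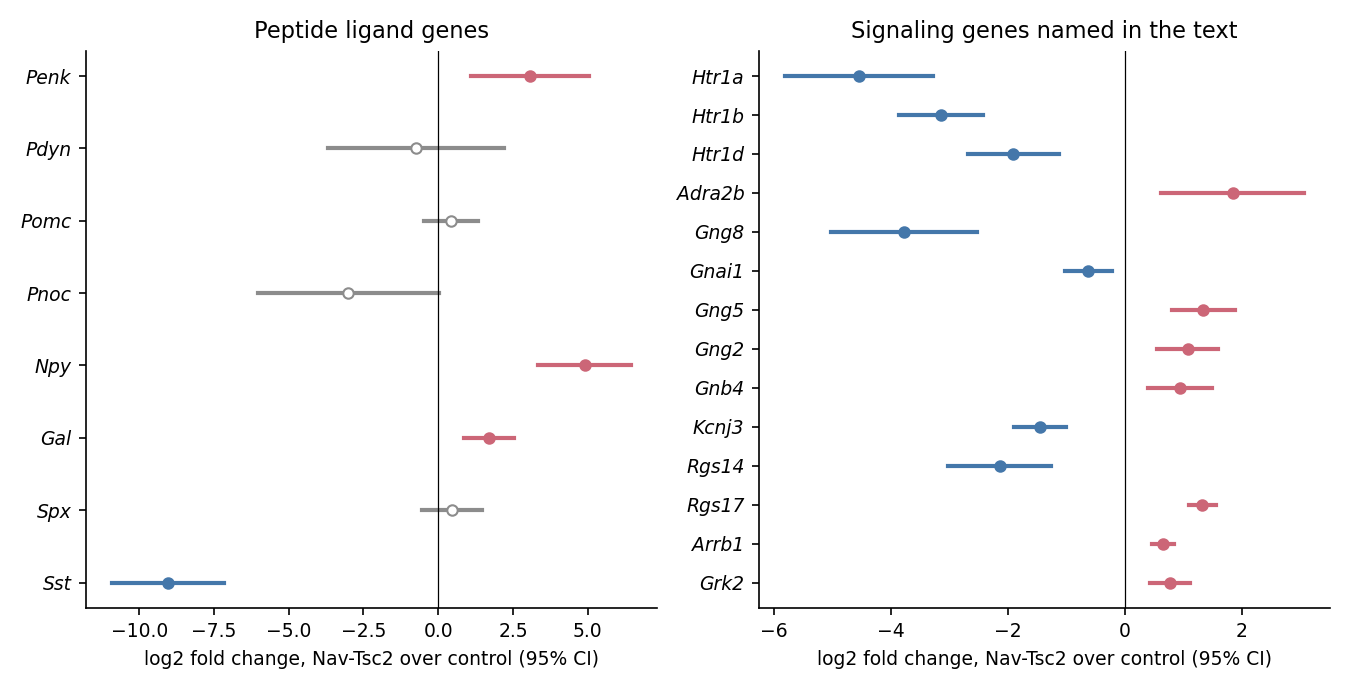
Log2 fold changes, Nav-Tsc2 over control, with 95% confidence intervals from edgeR on 4 mice per genotype, of the ligand genes that passed the filter (left) and of the signaling genes named in the text (right). Blue was called lower, red higher, and open gray points were not called. Sst is far to the left at -9.04, and Penk, Npy and Gal lie to the right of 0.

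Other receptors that couple to Gi/o were compared as a list. Of 20 such receptors 18 passed the filter, of which 6 were called lower and 1 higher, against 8.00% and 9.12% of all genes. The median of the list was -1.03 on the log2 scale. The lower genes with the smallest adjusted p were the serotonin receptors Htr1b, from 45.8 ± 15.5 to 5.19 ± 1.72 CPM (SD, n = 4), Htr1a, from 17.0 ± 5.81 to 0.728 ± 0.474 CPM, and Htr1d, from 14.6 ± 7.78 to 3.89 ± 0.386 CPM. Their log2 fold changes were -3.14, -4.55 and -1.91, with edgeR adjusted p of 0.000249, 0.000622 and 0.00453, and the call of Htr1d was lost with 24 libraries and the mouse as a random effect (limma adjusted p = 0.248). Adra2b, an adrenergic α2-receptor, rose from 9.45 ± 7.85 to 33.8 ± 12.3 CPM (log2 fold change 1.84, adjusted p = 0.0390), a call that was lost without any single Nav-Tsc2 mouse or control replicate 1 or 3, with adjusted p up to 0.111.

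Downstream of the receptors, the lists held genes called in both directions. Of 20 G protein subunits 2 were called lower and 4 higher, against 8.00% and 9.12% of all genes. Gng8, a γ-subunit gene, fell from 91.8 ± 43.3 to 6.69 ± 5.04 CPM (SD, n = 4, edgeR adjusted p = 0.00157), and Gnai1, an inhibitory α-subunit gene, from 51.6 ± 7.62 to 33.4 ± 7.69 CPM (adjusted p = 0.0347, up to 0.0959 without Nav-Tsc2 replicate 1, 2 or 4, or control replicate 1, 2 or 4, and 0.0887 with the replicate number as a block). Gng5, Gng2 and Gnb4 were the higher subunit genes with the smallest adjusted p, at log2 fold changes of 1.34, 1.08 and 0.95. Their edgeR adjusted p was 0.00405, 0.0104 and 0.0223. The call of Gnb4 was lost without control replicate 2 or Nav-Tsc2 replicate 1 or 3 (edgeR adjusted p up to 0.0649). Gnao1, the most abundant Gi/o α-subunit of neurons, was not called, with means of 637 CPM in control and 541 CPM in Nav-Tsc2 mice.

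Of 14 effector genes 13 passed the filter and 1 was called lower by edgeR, while DESeq2 called 3. Over all genes 8.00% were called lower and 9.12% higher by edgeR. Kcnj3, which encodes the GIRK1 potassium channel subunit that these receptors open, had 22.8, 23.7, 26.6 and 39.8 CPM in control replicates 1 to 4 and 10.3, 9.52, 9.78 and 11.6 CPM in Nav-Tsc2 replicates 1 to 4. It fell by 1.45 (SE 0.20, edgeR adjusted p = 0.000955) without overlap. Cacna1b, the N-type calcium channel that these receptors close, had means of 101 CPM in control and 99.1 CPM in Nav-Tsc2 mice (log2 fold change -0.03, adjusted p = 0.897).

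Of 18 genes for desensitization and for regulators of G protein signaling (RGS), 1 was called lower and 4 higher. The shares over all genes were 8.00% and 9.12%. Rgs14 fell from 4.62 ± 0.403 to 1.05 ± 0.523 CPM (SD, n = 4, edgeR adjusted p = 0.00473). Rgs17 rose from 69.4 ± 8.10 to 173 ± 12.5 CPM (adjusted p = 5.93e-05), Arrb1, the gene of β-arrestin 1, from 110 ± 9.19 to 173 ± 5.12 CPM (adjusted p = 0.000667), and the receptor kinase gene Grk2 from 46.8 ± 8.32 to 80.0 ± 13.0 CPM (adjusted p = 0.00681). The products of all 4 named genes of this list act to shorten or end signaling at G protein-coupled receptors or their G proteins.

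Sex was compared with genotype in the model, a comparison added after the values had been seen. No receptor was called in either direction by edgeR, against 0.00582% of all genes lower and 0.0233% higher in males, although 4 receptors (Oprm1, Npy1r, Galr1 and Sstr2) had an unadjusted p under 0.05, as had 1144 of all 17178 genes. Sstr2 had the smallest, at between 9.81 and 35.1 CPM in the 4 males and between 1.27 and 6.08 CPM in the 4 females, with no overlap (male minus female log2 difference 2.78, SE 0.51, unadjusted p = 0.000453, adjusted p = 0.539). The peptidergic marker sum was 19382 and 18906 CPM in the male and 9535 and 9986 CPM in the female control mice, and 6491 and 6980 CPM in the male and 4208 and 5253 CPM in the female Nav-Tsc2 mice. Its part in the Sstr2 values was not tested, and sex cannot be told apart from any batch that replicates 1 and 2 shared.

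A difference of the genotype effect between the sexes was tested as an interaction with 2 mice per sex and genotype. No receptor passed, against 0.00582% of all genes, and none had an unadjusted p under 0.05 in edgeR, where the smallest was 0.147, while 1583 of all 17178 genes were under 0.05. DESeq2 called none of the 10 either. Without the filter on low counts 1 receptor, Npy1r, was called, with a log2 difference of -1.36 between the genotype effect in males and that in females (edgeR adjusted p = 5.43e-05). The log2 difference was also -1.36 in the main fit. The SE was 0.99 there (edgeR adjusted p = 0.744) and 0.26 without the filter, so the call came with a smaller SE. The share of all genes called without the filter is not reported here. The Npy1r means were 94.4 CPM in control and 60.5 CPM in Nav-Tsc2 males and 21.7 and 35.8 CPM in females, and the male control mean contains control replicate 1.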

How the data were processed

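RNA was measured in 24 libraries of 100 sorted cells. The libraries were made without strand information and read as 50-base single reads. The authors used STAR to align reads to mm10 and HTSeq to make the deposited counts, without normalization. The authors' deposited table of their own DESeq2 comparison holds fold changes and p-values and was not used. Between 47.6% and 55.9% of reads per library were not assigned to a gene and were left out. Groups came from the sample labels, and the 3 libraries of a mouse, which are technical, were summed. Litters are not given, so the p-values measure the spread between these mice.

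Counts were tested with edgeR 4.0.16 in R 4.3.3 (filterByExpr, TMM, quasi-likelihood test, Benjamini-Hochberg over all genes tested), and standard errors are the estimate over the square root of F. The fit was tested on simulated data. DESeq2 1.42.0 and limma 3.58.1 served for alternatives. Gene positions, exon lengths and symbols were taken from GENCODE M21 on GRCm38, where 47224 of 47643 identifiers matched a symbol, and promoter sequences from RefSeq on GRCm38.p6.

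The receptors, the gene lists and the tests were chosen with earlier results of these data known. Genes were named by a rule: the 10 receptors, Tsc2, every tested ligand, up to 3 lower and 3 higher genes per list by adjusted p, and the 3 genes most like each receptor with a mean of at least 1 CPM. Scn10a, Cdh5, Cldn5, Gnao1 and Cacna1b fall outside it and were picked with their values known. Some genes that meet the rule are not named here.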

Additional observations from a re-analysis of the deposited data

Results flagged for a closer look

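The values of the 10 receptors and of Tsc2 in each genotype gave 22 groups of 4 mice. Of these, 2 held a mouse that stood far from the rest by Dixon's criterion. For independent groups of normally distributed values, chance would give about 1 in 20, or 1.1 here. These groups came from the same mice and held CPM without a log, some near 0, so that rate need not apply. Npy1r was 162 CPM in control replicate 1, far above the other control mice at between 19.5 and 26.5 CPM. Oprk1 was 0.926 CPM in Nav-Tsc2 replicate 1, where the other Nav-Tsc2 mice had between 0 and 0.0677 CPM. In both cases library C of the mouse gave the largest share of the counts.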

How the results depend on the processing

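At an adjusted p under 0.01 instead of 0.05, 730 genes were called lower and 869 higher in place of 1374 and 1567, and 1 receptor (Npy2r) was lower and 0 higher in place of 4 and 1. With 24 libraries and the mouse as a random effect 2 receptors were lower, of the 5 that passed that filter, and with libraries weighted equally 0 were higher. Leaving out each mouse in turn gave between 995 and 1577 genes lower, between 1150 and 1925 higher, between 2 and 4 receptors lower and between 0 and 2 higher. Without the filter on low counts 1 receptor (Npy1r) was called for an interaction with sex, in place of 0, at the same log2 difference but a smaller SE. With the longest transcript as length, 1 pair of neighbors was separated in all Nav-Tsc2 mice in place of 2.

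The log2 fold change of Npy1r turned from -0.27 to 0.27 with the replicate block, 0.033 when sex was a covariate and 0.45 with libraries and a random effect, and ranged from -0.56 to 1.04 as each mouse was left out. The corresponding ranges were -0.20 to 0.79 for Npy5r, -1.62 to 0.50 for Sstr2 and -1.15 to 0.020 for Pdyn. The cause was not tested. Of 800 values of 45 genes under the alternatives, 711 kept direction and side of the threshold, 75 lost the call, 5 gained it and 9 turned direction. The 800 include the stricter adjusted p and the call with no limit on the log2 fold change. Both repeat the fold changes of the main fit, so their direction was fixed in advance.

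Equal replicate numbers were checked as a pairing on 8445 genes. The deviations of same-numbered mice correlated across genes at 0.0831, 0.108, 0.0187 and 0.107 with 1 CPM added before the log, so not all were above 0.1, and at 0.228, 0.220, 0.146 and 0.238 with 0.01 CPM added. The numbers were therefore not taken to pair the mice. Different-numbered mice of the same sex correlated at -0.0173, 0.103, 0.112 and 0.0294 with 1 CPM added. With 0.01 CPM added these pairs correlated at 0.102, 0.238, 0.220 and 0.149. Pairs of different sex were all negative with either offset, between -0.285 and -0.117 with 0.01 CPM added. With the replicate block 1116 genes were called lower and 1329 higher, and 5 receptors were lower, Galr1 being the added one, and 1 higher. With Spearman's rho 6, and with control libraries alone 7, of the 8 receptors compared kept the same closest marker list. With Spearman's rho Galr2 changed to the peptidergic and Oprm1 to the myelinated list.

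At this depth Oprd1 had no count in 1 control mouse and Npy5r in 2, and the intervals of both fold changes span 0.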

Other observations

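The remaining receptors of the same families were nearly silent in these cells. Of Npy4r, Npy6r, Galr3, Sstr1, Sstr3, Sstr4 and Sstr5 only Sstr1 passed the filter on low counts, and Galr3 was not analysed here. Sstr1 encodes another somatostatin receptor and had 0.796, 0.170, 0.181 and 0.0803 CPM in control replicates 1 to 4 and 1.42, 1.91, 0.784 and 1.24 CPM in Nav-Tsc2 replicates 1 to 4. The log2 fold change was 2.11 (SE 0.75, edgeR adjusted p = 0.0744), which did not pass, and it was called higher by DESeq2, with sex as a covariate and without control replicate 1. Npy6r had no count in any mouse, Npy4r reached at most 0.181 CPM, and Sstr4 and Sstr5 reached at most 1.51 and 0.627 CPM, both in control mice.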
